A study of Emberiza melanocephala with 15 samples.

Results

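The libraries collected at hour 22 of an extended light period were set against those of hours 10, 14 and 18 in the hypothalamus of blackheaded buntings (Emberiza melanocephala), a migratory songbird. They were chosen by their time label, which gave 3 of the 15 libraries of the series, from 2 photosensitive birds and 1 photorefractory bird. The 12 libraries of hours 10, 14 and 18 came from 2 birds of each state at each hour. Each library was made from the hypothalamus of 1 wild-caught adult male, and hours were counted from lights on. All birds stayed in light on the day of sampling, so the hour is also the length of light a bird had received that day. The photosensitive birds had been held on short days, shortened further before the experiment, and the photorefractory birds had been held on long days throughout. The photosensitive birds were therefore past their usual lights-off at all hours sampled. At hours 10 and 14 the photorefractory birds were still within their usual light period. At hours 18 and 22 they were past it, but by less than the photosensitive birds. The extension of light at hour 22 was thus not equally long in both states. A second photorefractory bird of hour 22 failed the library quality check of the study, so the change at hour 22 in that state rests on 1 bird, which was assumed to vary like the others in its fit. The deposited tables give, for each transcript assembled from the reads, an estimated count per library. Counts were summed per assembled gene, and 60824 of 317533 assembled genes had a sum of at least 5 in 3 or more libraries and were tested.

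In birds of temperate latitudes day length sets the time of breeding, and the hypothalamus is where light late in the day is turned into a signal to the pituitary. A photosensitive bird answers a long day with the release of gonadotropins. A photorefractory bird, after a long spell of long days, no longer does so, and its gonads regress. The question put to the hours was when in the extended light period expression changed, and whether the 2 states changed alike. The identifiers are not paired with gene names in the deposited tables, so assembled genes are given by identifier, their roles are not given, and markers of the hypothalamus or of other tissue could not be looked up.

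The 3 hour 22 libraries lay closer to each other than any pair of the other 12, although they came from both states. For log2 CPM, counts were scaled by the library total times its TMM scaling factor, with a prior count of 2. Plain CPM used the library total alone. The root mean square difference in log2 CPM over the genes tested was 0.728 between the photosensitive hour 22 birds. The photorefractory hour 22 bird lay at 0.711 and 0.736 from them. Among the other 12 libraries the closest pairs, the photosensitive hour 14 birds and photorefractory hour 10 bird 1 with photorefractory hour 14 bird 1, were at 0.82, and birds of the same state and hour lay between 0.82 and 1.095. From hour 22 to the other hours the distance was 1.035 to 1.721. The 3 hour 22 libraries were also the deepest, with total counts of 8068941 to 9403923 against 3176062 to 7318462 in the other 12. The part of depth in these distances was not tested. The first principal component of log2 CPM, with 30.8% of the variance, placed the hour 22 birds at 191.8 and 203.4 in the photosensitive state and at 170.5 in the photorefractory state. The other 12 birds lay between -180.3 and 53.4, the nearest being photosensitive hour 10 bird 2 and, at 29.3, photorefractory hour 14 bird 2. Genes with a longest transcript under 500 nt took 7.35% and 7.48% of the counts in these nearest birds. Their share was 10.4% in the farthest, photosensitive hour 18 bird 2. Photorefractory hour 18 bird 1, with 7.36%, lay at -23. Whether the component goes with such traits of the libraries was not tested. The second component, with 15.6%, set both photorefractory hour 18 birds apart, at -175.1 and -188.9, whose libraries were the shallowest and had the shortest fragments of the series. These distances are a description over the same genes that were tested, 2696 of which passed the filter on low counts through the hour 22 libraries alone. Without those genes the distance was 0.72 to 0.745 within hour 22, 0.976 to 1.703 between hour 22 and the other hours, and at least 0.834 among the other 12 libraries.

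**Figure D1:**
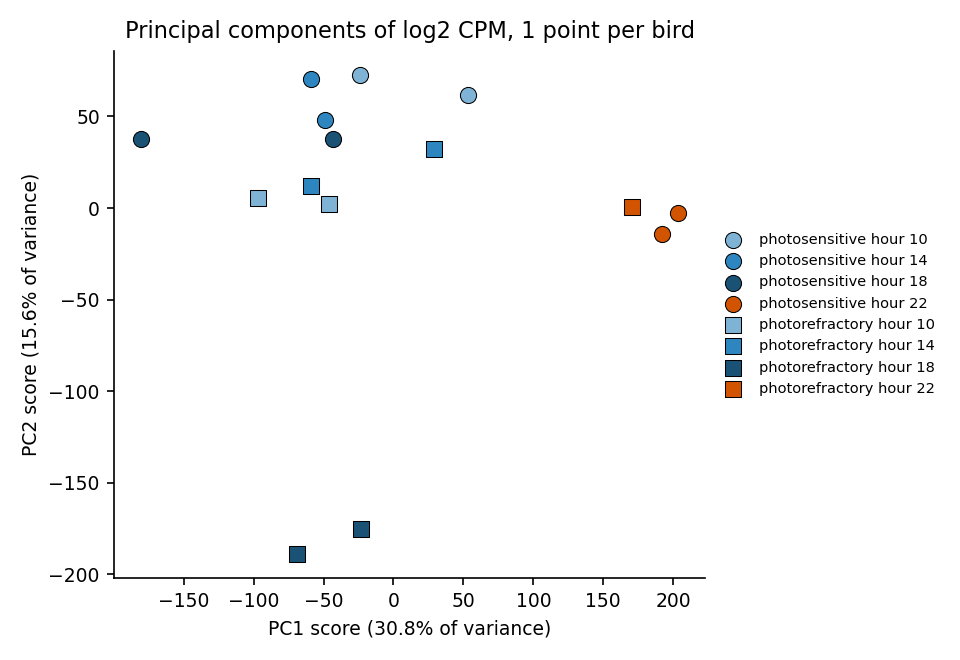
Scores of the 15 birds on the first principal component (x axis, 30.8% of variance) and the second (y axis, 15.6%) of log2 CPM, 1 point per bird, coloured by hour, with circles for photosensitive and squares for photorefractory birds. The 3 hour 22 birds of both states sit between 170.5 and 203.4 on the x axis, to the right of all 12 other birds.

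At hour 22 a large share of the assembled genes differed from the earlier hours, in both directions. With state as a term, 8836 assembled genes were higher (14.5% of those tested) and 7576 were lower (12.5%) at hour 22, or 27% in all, by edgeR's quasi-likelihood test at a Benjamini-Hochberg adjusted p at or below 0.05. The median log2 fold change was 1.75 among the genes that rose and -1.45 among those that fell, beside 0.11 over all genes tested. The median over all genes was 0.06 without genes that had a sum under 5 in all 12 other libraries and 0.02 over genes with at least 5 in 6 libraries. Of the genes that rose, 7480 changed by more than 1 on the log2 scale, 3517 by more than 2 and 2020 by more than 3. The genes that fell numbered 5683, 2377 and 1418 at the same sizes. Of the genes that rose, 2377 had a sum under 5 in all 12 other libraries. Of those that fell, 1588 had a sum under 5 in all 3 hour 22 libraries. The sizes of such genes rest on counts near the floor. Genes under 5 in all 12 others made up 1747 of the 1753 that were over 4 on the log2 scale in both states. In bulk tissue, fewer cells of a type and less RNA per cell cannot be told apart. The count was smaller with 1 hour 22 bird fewer, at 8286 without photosensitive hour 22 bird 1, 7136 without photosensitive hour 22 bird 2 and 9081 without the photorefractory hour 22 bird. These refits chose the genes anew and tested 56631, 56271 and 56319. With 2 hour 22 birds, a gene under 5 in all 12 others cannot pass the filter, which by itself lowers the count. The same holds for all counts below that leave out an hour 22 bird. The balance of directions was close to that of the main fit with RLE scaling factors, at 9261 higher and 7184 lower. It was 13668 higher and 4006 lower by limma with log2(TPM + 1), 10257 and 4033 with log2(TPM + 0.1), 7007 and 9030 with an offset for transcript length, and 2205 and 4594 with library size as a term.

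Without a model, the libraries of hour 22 and of the other hours did not overlap for many genes. All 3 hour 22 libraries lay above all 12 others in CPM for 7436 genes (12.2% of those tested), of which 6633 also passed the test. They lay below all 12 for 3474 genes (5.71%), of which 3418 passed. Together the genes that rose took 24.7% to 27.2% of all counts in the hour 22 libraries, against 7.1% to 15% in the other 12. The genes that fell took 17.2% to 18.7% at hour 22 and 27.8% to 40.8% at the other hours. Photosensitive hour 10 bird 2 came nearest to hour 22 on both sums, and photosensitive hour 18 bird 2 lay farthest from it. The genes were chosen by the test on these libraries, so the sums are a description of their weight.

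A part of the difference was in genes found at hour 22 alone. No count was assigned to 1698 of the genes tested in any of the 12 other libraries. Such a gene passed the filter only with at least 5 counts in all 3 hour 22 libraries, so its rise was fixed by the filter. All 1698 passed the test, which adds nothing to that. In the hour 22 birds these genes had a median count of 9 and 10 in the photosensitive state and 9 in the photorefractory state, and summed to 0.245% to 0.273% of a library. Their median longest transcript was 1845 nt, beside 1241 nt over all genes tested. In the other direction, 778 genes had no count in any hour 22 library, and 745 of them fell in the test. Their longest transcript had a median of 574 nt. In photorefractory hour 18 birds 1 and 2 these 778 genes took only 0.0198% and 0.0217% of the counts, against 0.083% to 0.132% in the other 10 libraries of hours 10 to 18. A filter on low counts favours the first kind, because 2696 genes passed it through the hour 22 libraries alone, having a sum under 5 in all 12 others. With those genes left out, a setting added once the data were known, 6356 of 58128 genes rose and 7048 fell, and 5098 (8.77%) lay above all 12 others in all 3 hour 22 libraries.

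Among the genes whose libraries did not overlap, the smallest p in each direction belonged to 4 genes. Choosing genes without overlap itself required the same direction in both states and a gap between hour 22 and the other hours. The values below therefore describe size only. TRINITY_DN77802_c0_g1, with 11 transcripts of up to 3822 nt, had 118 and 112 CPM in the photosensitive and 111 CPM in the photorefractory hour 22 birds, against a lowest of 0.763, a median of 1.51 and a highest of 2.7 CPM in the other 12. All 12 other birds thus lay near 1 level, far below the 3 birds of hour 22. Its log2 fold change was 6.02 ± 0.21 (SE, adjusted p = 8.37e-12 by edgeR's quasi-likelihood test), with 6.06 in the photosensitive and 5.95 in the photorefractory birds fitted alone. TRINITY_DN100628_c0_g2, assembled to 5541 nt, had 370 and 311 CPM in photosensitive and 431 CPM in photorefractory hour 22 birds, against 40, 54 and 76.4 CPM as the lowest, median and highest of the others. The groups were apart by more than the whole range of the 12, and the log2 fold change was 2.67 ± 0.14 (SE, adjusted p = 5.48e-09, same test).

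The genes that fell most clearly were short. TRINITY_DN84224_c1_g1, with transcripts of at most 337 nt, had 0.62 and 4.25 CPM in photosensitive and 3.13 CPM in photorefractory hour 22 birds, against 52.8, 99.5 and 143 CPM as the lowest, median and highest of the other 12. No library of hours 10 to 18 came near the hour 22 level, and the log2 fold change was -5.30 ± 0.51 (SE, adjusted p = 1.1e-05 by edgeR's quasi-likelihood test). TRINITY_DN83840_c0_g1, of at most 248 nt, had 2.23 and 1.06 CPM in photosensitive and 0.447 CPM in photorefractory hour 22 birds, against 11.4, 16 and 21.5 CPM in the others. Here the photorefractory bird was the lowest of all 15, and the log2 fold change was -3.82 ± 0.38 (SE, adjusted p = 1.42e-05, same test), with -3.28 in the photosensitive and -5.42 in the photorefractory birds fitted alone. All 4 genes kept their direction and passed in each of the 32 alternatives that tested them.

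**Figure D2:**
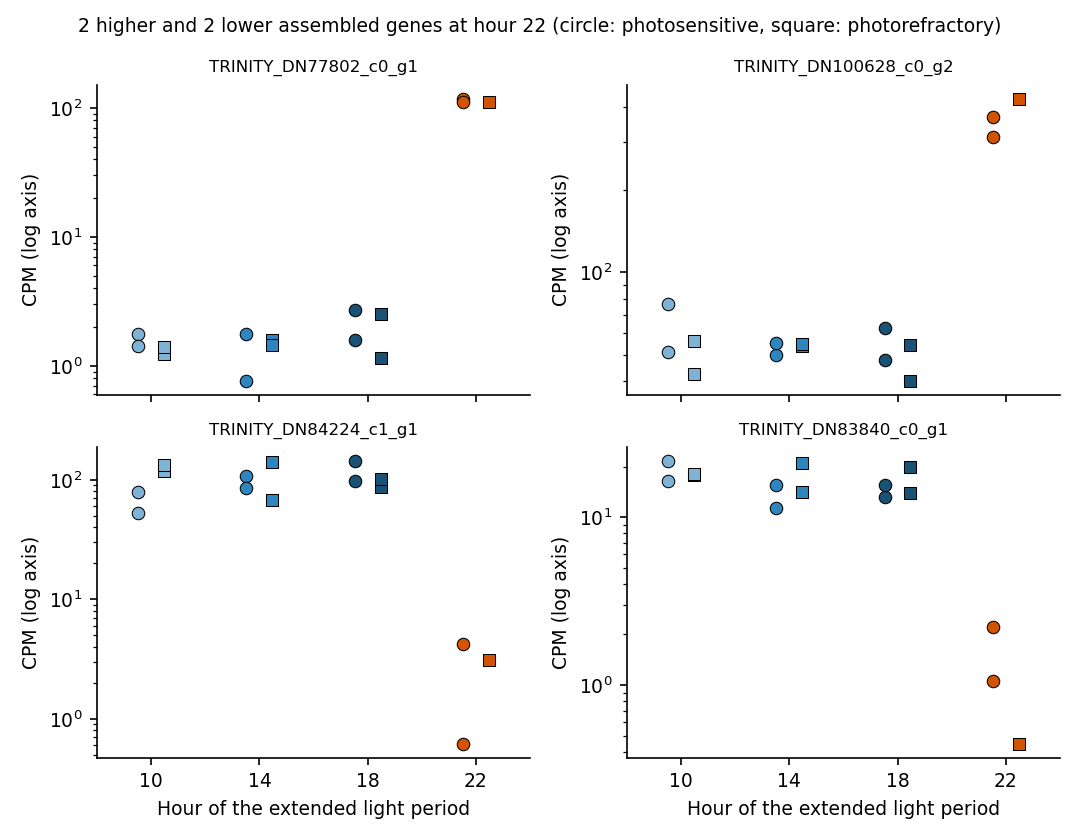
CPM on a log axis of the 2 higher and 2 lower assembled genes with the smallest p of their direction among genes without overlap, in each bird by hour, with circles for photosensitive and squares for photorefractory birds. The 3 hour 22 birds stand above the other 12 for TRINITY_DN77802_c0_g1 and TRINITY_DN100628_c0_g2 and below them for TRINITY_DN84224_c1_g1 and TRINITY_DN83840_c0_g1.

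An assembled gene is a part of a component, here the set of all assembled sequences with the same DN number, whatever their c number. A component in this sense can hold several pieces or relatives of 1 gene. Whether its sequences overlap or are related was not checked. Summed per component, a setting added once the data were known, 5446 of 30426 components rose and 3905 fell at hour 22 (30.7% of those tested, edgeR's quasi-likelihood test). In components of 2 or more genes, 62.9% of the 7287 genes that rose belonged to a component whose sum also rose, 3.58% to one that fell, and 33.5% to one that did not pass the test. For the 6984 genes that fell the shares were 60.7%, 3.12% and 36.1%. Over all genes tested the component's sum passed in the direction of the gene's own change for 28.7%, passed in the opposite direction for 6.4%, and did not pass for 64.9%. No count was found for 1632 components in the 12 other libraries, and for 338 in the hour 22 libraries.

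Both cases occurred among the named genes. TRINITY_DN77802_c0_g1 is the only gene of its component, and its change is that of the component. TRINITY_DN100628_c0_g2 made up 43% of the counts of its 5-gene component at hour 22 and 8.33% at the other hours, while the component summed to 810 to 895 CPM at hour 22 and 503 to 951 CPM at hours 10 to 18. The component's log2 fold change was 0.25 (adjusted p = 0.341 by edgeR's quasi-likelihood test) and did not pass, beside 2.67 for the gene. The components of TRINITY_DN84224_c1_g1 and TRINITY_DN83840_c0_g1 changed by -2.79 and -1.91 on the log2 scale, less than the genes.

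Tested singly, 4757 of 102241 transcripts were higher and 3815 lower at hour 22. Of those that rose, 4194 belonged to an assembled gene that rose, 54 to a gene that fell and 509 to a gene that did not pass. Of those that fell, 3223 belonged to a gene that fell, 63 to a gene that rose and 529 to a gene that did not pass. Among genes with at least 2 tested transcripts, the transcripts were all higher for 55.2% of the 3557 genes that rose, beside 22.1% of all 18557 such genes. They were all lower for 56.4% of the 2670 genes that fell, beside 17.7%.

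The photosensitive birds alone, 2 of hour 22 and 6 of hours 10 to 18, gave most of the calls. In this state 6240 genes rose (10.3% of those tested) and 5049 fell (8.3%) by edgeR's quasi-likelihood test, with median log2 fold changes of 2.17 and -1.88. The count fell to 848 without photosensitive hour 22 bird 1 and to 171 without bird 2, with a single bird then left at that hour. TRINITY_DN75210_c0_g2, assembled to 4428 nt, had 147 and 144 CPM in the photosensitive hour 22 birds and no count in the 6 others. It was at least 1644-fold higher at hour 22, taking 3 counts over the 6 libraries as the limit of a count of 0 (adjusted p = 2.13e-04, same test). The photorefractory hour 22 bird, which was not part of that fit, had 140 CPM, and the 6 other photorefractory birds had none. A gene with no count in all 12 others could be tested only if all 3 hour 22 birds had at least 5 counts. Its rise in the photosensitive birds and its presence in the photorefractory bird were thus required by the filter. The p adds nothing to that direction. The component of TRINITY_DN75210_c0_g2, of 7 genes, was not absent at hours 10 to 18. It had 1.74 to 15.1 CPM there and 149 to 157 CPM at hour 22. Over both states the component's log2 fold change was 4.85 (adjusted p = 3.16e-06 by edgeR's quasi-likelihood test), far less than that of the gene.

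TRINITY_DN82661_c2_g3 had 23.5 and 17.4 CPM in the photosensitive hour 22 birds and 0 CPM in 5 of the other 6, with 0.188 CPM, or 1 count, in photosensitive hour 14 bird 1. The ratio of the summed counts, each divided by the summed library totals, was 686 (hour 22 over the others, 95% exact interval 122 to 27177, counting error only). The photorefractory hour 22 bird had 18.2 CPM, a level of at least 5 counts that the filter again required. With fewer than 5 counts in every other library, the gene's direction in the photosensitive birds was largely fixed by the filter as well. Its component of 11 genes went the other way, at 118 to 135 CPM at hour 22 against 98.7 to 747 CPM at the other hours, without passing the test (log2 fold change -1.25, adjusted p = 0.0879 by edgeR's quasi-likelihood test).

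Of the genes that fell in the photosensitive birds, TRINITY_DN82302_c0_g1 had no count in either hour 22 bird and 10.4, 11.2 and 11.7 CPM as the lowest, median and highest of the other 6. It was at least 64.7-fold lower at hour 22 (adjusted p = 3.5e-04, same test). The photorefractory hour 22 bird was also at 0 CPM, but so were both photorefractory hour 18 birds, while the photorefractory birds of hours 10 and 14 had 9.71 to 17.6 CPM. TRINITY_DN81573_c2_g1 had 0.124 and 0.107 CPM in the photosensitive hour 22 birds, which is 1 count each, and 15.6, 21.7 and 28.4 CPM as the lowest, median and highest of the others. The ratio of the summed counts, each divided by the summed library totals, was 0.00511 (hour 22 over the others, 95% exact interval 6.18e-04 to 0.0185, counting error only). In the photorefractory state it had 0.223 CPM at hour 22 but also only 1.16 and 0.63 CPM in the hour 18 birds, so that low level was not particular to hour 22 there. Its component of 5 genes fell less, and its ranges overlapped, at 4.12 to 4.89 CPM at hour 22 and 1.89 to 32 CPM elsewhere. Over both states the component's log2 fold change was -2.43 (adjusted p = 0.00297 by edgeR's quasi-likelihood test).

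The photorefractory birds alone, 1 of hour 22 against 6, gave 301 calls by the same test (0.495% of the genes tested), 187 higher (0.307%) and 114 lower (0.187%). The number moved with single birds. It was 128 and 127 with the genes chosen without photosensitive hour 22 bird 1 or 2, which changes only the filter, 113 and 47 without photorefractory hour 10 bird 1 or 2, 72 and 539 without photorefractory hour 14 bird 1 or 2, and 1152 without photorefractory hour 18 bird 2. Without both photorefractory hour 18 birds, which had the shallowest libraries, a setting added once the data were known, 1512 genes rose and 2088 fell. DESeq2 called 731 higher and 1989 lower, and limma on log2(TPM + 1) called 4131 and 391.

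TRINITY_DN100266_c7_g1, assembled to 5747 nt, had 67.5 CPM in the photorefractory hour 22 bird and no count in the 6 others, so that it was at least 658-fold higher (adjusted p = 3.19e-04, edgeR's quasi-likelihood test). The photosensitive hour 22 birds had 73.2 and 77.3 CPM, and the 6 other photosensitive birds again had none. The gene was tested because all 3 hour 22 birds had it, so its rise in both states was required by the filter. The p adds nothing to that direction. Its component of 12 genes had no count at all in the 12 libraries of hours 10 to 18 and 70.3 to 81.7 CPM at hour 22. TRINITY_DN94176_c1_g2, of at most 360 nt, had 263 CPM in the photorefractory hour 22 bird, against 1.78, 4.21 and 7.42 CPM as the lowest, median and highest of the other 6, a log2 fold change of 5.66 ± 0.42 (SE, adjusted p = 4.21e-05, same test). The photosensitive hour 22 birds differed from each other, at 7.42 and 51.2 CPM, against 2.95 to 7.29 CPM in the others of that state.

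Among the genes that fell in the photorefractory state, TRINITY_DN83047_c6_g3 had 64 CPM at hour 22, against 275, 293 and 326 CPM as the lowest, median and highest of the other 6 (log2 fold change -2.43 ± 0.33, SE, adjusted p = 0.00858, edgeR's quasi-likelihood test). The photosensitive hour 22 birds were as low, at 52.9 and 57.5 CPM against 145 to 304 CPM. TRINITY_DN84279_c0_g2 had no count at hour 22 and 6.77, 13.7 and 23.6 CPM in the others, at least 44-fold lower (adjusted p = 0.0102, same test). In the photosensitive birds it did not pass, at 3.63 and 1.98 CPM at hour 22 against 1.96 to 11.6 CPM (log2 fold change -1.39 ± 0.60, SE, adjusted p = 0.127, same test). Its component of 6 genes had 22.9 to 28.6 CPM at hour 22 and 7.72 to 40.3 CPM at the other hours, and did not pass (log2 fold change 0.41, adjusted p = 0.328, same test). Of its 2 transcripts tested singly, 0 passed. By limma on log2(TPM + 1) the photorefractory difference had an adjusted p of 0.0579.

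The fits of the 2 states share no library, but they share the filter on low counts, which let in 2696 genes through the hour 22 libraries of both states together. Among the 6240 genes that rose in the photosensitive birds 2045 (32.8%) were of that kind, as were 46 of the 187 that rose in the photorefractory birds (24.6%), and their direction in the other state was largely fixed by it. Pearson's r between the photosensitive and the photorefractory log2 fold changes was 0.723 across all 60824 genes and 0.597 across the 58128 without them. The share of genes with the same sign was 74.1% and 72.9% over the same genes.

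For genes chosen in 1 state, the values in the other state are therefore given over genes that passed the filter in the libraries of the choosing state alone, a setting added once the data were known. The photosensitive libraries alone let in 52279 genes, with 3957 of those that rose and 4816 of those that fell in the photosensitive birds. Of the 3957, 92.4% had a positive change in the photorefractory birds, beside 50.4% of the 52279. Of the 4816, 96.2% had a negative change, beside 49.6%. The photorefractory hour 22 bird lay above its 6 others in CPM for 77.5% of the genes that rose, beside 30.4%, and below them for 52.3% of the genes that fell, beside 14.4%. The photorefractory libraries alone let in 43052 genes, with 118 of those that rose and all 114 of those that fell in the photorefractory birds. Both photosensitive hour 22 birds lay above their 6 others for 83.9% of the 118, beside 18.8% of the 43052, and below them for 82.5% of the 114, beside 19.9%. Genes are not independent replicates, and the hour 22 libraries of both states share their greater depth, so these are descriptions and carry no p.

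The same genes were followed library by library in the state that did not choose them. Relative to the mean log2 CPM of the 6 other photorefractory birds, the 3957 genes that rose in the photosensitive birds had a median difference of 1.01 in the photorefractory hour 22 bird, against -0.29 to 0.31 in each of those 6. The 4816 genes that fell had -1.07 in that bird and -0.39 to 0.38 in the 6. All 52279 genes had a median of 0.19 in the hour 22 bird. In the reverse direction, the 118 genes that rose in the photorefractory state had 1.96 and 2.07 in the photosensitive hour 22 birds, against -0.71 to 0.67 in the 6 others. The 114 that fell had -1.44 and -1.61, against -0.52 to 0.28. Both photosensitive hour 22 birds thus lay outside the range of the 6 on genes chosen in the other state, as did the photorefractory hour 22 bird.

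**Figure D3:**
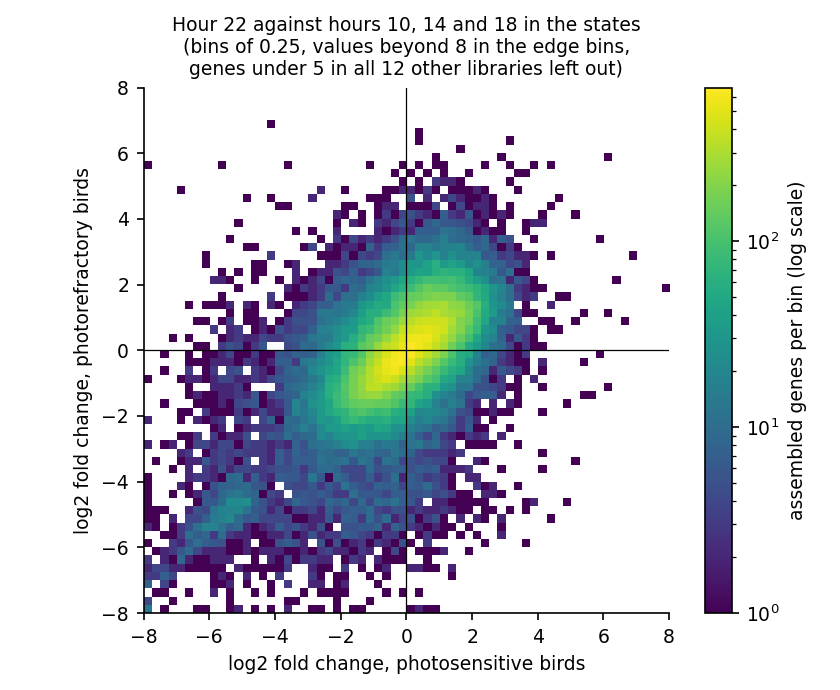
Log2 fold change of hour 22 against hours 10, 14 and 18 in the photosensitive birds (x axis) and the photorefractory birds (y axis), as the number of assembled genes per bin of 0.25 on a log colour scale, with the 2696 genes under 5 in all 12 other libraries left out. The 58128 genes spread along the diagonal (r = 0.597).

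The change was smaller in the photorefractory state for genes chosen in the photosensitive one, with a median of 0.92 against 1.67 for the 3957 that rose and -1.32 against -1.81 for the 4816 that fell, where the choice of genes itself favours the photosensitive value. Genes chosen in the photorefractory state went the other way. Their photorefractory and photosensitive medians were 2.1 and 1.95 for those that rose, and -2.21 and -1.6 for those that fell. That choice favours the photorefractory value. The difference between the states was tested as an interaction. It passed for 0 of 60824 genes by edgeR's quasi-likelihood test, with a smallest adjusted p of 0.94 and 2772 genes (4.56%) at an unadjusted p under 0.05. DESeq2 called 7 genes, with the photorefractory change the more upward in 5 and the more downward in 2. By limma it was more upward in 60 and more downward in 30 genes with a pseudocount of 1. With 0.1 it was more upward in 36 and more downward in 110. These counts give the sign of the difference between the states, not which state changed more. The median standard error of the difference was 1.12 on the log2 scale, against 0.54 for the hour 22 change itself. Large differences did not pass either, such as 3.26 on the log2 scale for TRINITY_DN94176_c1_g2 (photorefractory minus photosensitive, adjusted p = 1, edgeR's quasi-likelihood test), and a result that did not pass does not show that the states changed alike.

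Hour 22 stood apart from the other hours in the number of genes called against the remaining hours. The same test of hour 10, hour 14 or hour 18 against the remaining hours called 0, 0 and 0 genes (0% of those tested). At an unadjusted p under 0.05 there were 2576, 2267 and 9293 genes at hours 10, 14 and 18, beside 23602 at hour 22. DESeq2 called 24, 19 and 1271 genes at hours 10, 14 and 18, and 17897 at hour 22. In these contrasts the hour 22 libraries are among the references and widen the spread. With the hour 22 libraries left out, a setting added once the data were known, edgeR's quasi-likelihood test called 0, 0 and 3 of 50962 genes, and 1991, 1354 and 7074 had an unadjusted p under 0.05. The difference in number between hours was not tested, and each of hours 10, 14 and 18 had 4 birds where hour 22 had 3. The hour 22 libraries were also the deepest, and traits of a library that go with its depth cannot be told apart from the hour. With library size as a term hour 22 gave 6799 calls, and the other hours were not fitted with that term. Without photosensitive hour 18 bird 1 the test of hour 18 called 34 genes, and that of hours 10 and 14 called 1 each without photosensitive hour 10 bird 2 or photosensitive hour 14 bird 1.

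Against each single hour, hour 22 was higher for 5343 genes (8.78% of those tested) and lower for 5397 (8.87%) relative to hour 10, or 17.7% in all. Relative to hour 14 it was higher for 5436 (8.94%) and lower for 5493 (9.03%), or 18% in all. Relative to hour 18 it was higher for 9013 (14.8%) and lower for 6961 (11.4%), or 26.3% in all. These contrasts share the hour 22 libraries. Of the 8836 genes that rose in the main test, which pooled the other hours, 3942 (44.6%) passed against every other hour singly. Of the 7576 that fell, 3745 (49.4%) did. Relative to hours 10, 14 and 18, the 8836 genes had median log2 fold changes of 1.61, 1.66 and 2.02. The 7576 genes had -1.37, -1.39 and -1.52. By these medians the changes were largest against hour 18. Both photorefractory hour 18 libraries were the shallowest of the series and had the shortest fragments. Without photosensitive hour 18 bird 2, hour 22 gave 11342 calls against hour 18, beside 12302 and 12531 against hours 10 and 14. With any other single bird left out, the number of calls stayed highest against hour 18. Without 1 of the hour 22 birds the counts were 3513 to 5693 for hour 10, 3540 to 5944 for hour 14 and 7197 to 9403 for hour 18.

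The direction of change went with the assembled length of a gene. Of genes whose longest transcript had up to 300 nt, 4.35% rose and 20.2% fell at hour 22. From 301 to 500 nt the shares were 6.79% and 17.5%, and from 501 to 1000 nt 10.3% and 14.3%. The order turned above that, with 16.5% higher and 9.93% lower from 1001 to 2000 nt, 21.1% and 9.03% from 2001 to 4000 nt, and 22.4% and 11.6% over 4000 nt. The median log2 fold change was -0.43 in the shortest class and 0.31 from 2001 to 4000 nt, and both states showed the same order, with -0.48 and 0.29 in the photosensitive and -0.47 and 0.24 in the photorefractory birds. Across the 60824 genes the log2 fold change and the log10 of the length had a Pearson's r of 0.228. Genes with more than 10 assembled transcripts rose in 18.6% and fell in 8.81% of cases, and genes with 1 transcript in 13.7% and 13.7%.

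**Figure D4:**
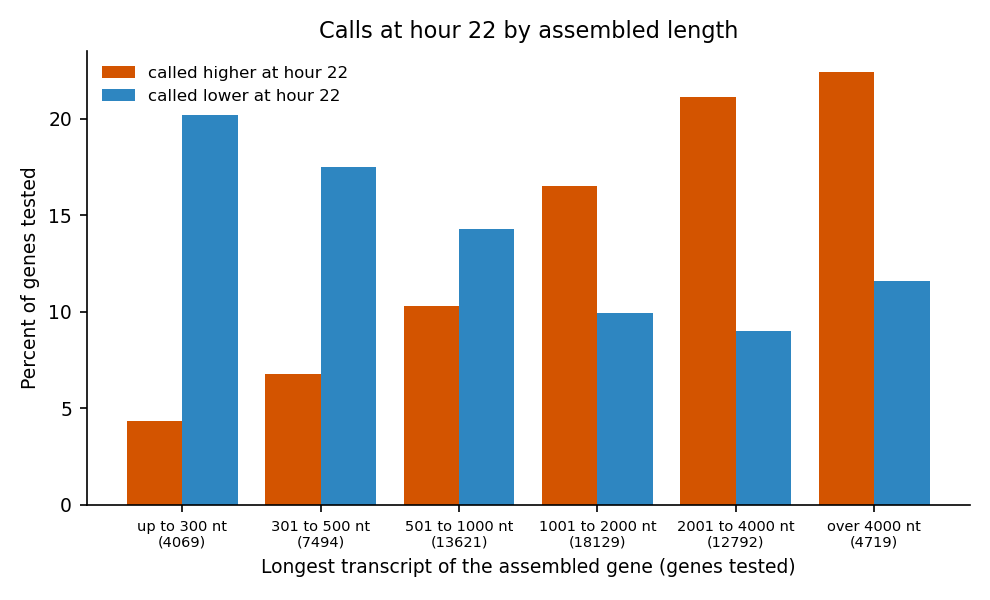
Percent of the assembled genes tested that were higher (orange) and lower (blue) at hour 22, by the length of the gene's longest transcript, with the number of genes tested under each class. The share that rose is 22.4% over 4000 nt and 4.35% up to 300 nt, and the share that fell is 20.2% in the shortest class.

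The direction went with abundance as well. In the highest quintile of mean log2 CPM 17.5% of genes rose and 28.6% fell. In the lowest 23.1% rose and 4.86% fell, but 2662 of its 12165 genes had a sum under 5 in all 12 other libraries, and without these 4.84% rose and 6.22% fell. Within the highest quintile the length classes still differed, with 4.51% higher and 52% lower up to 300 nt and 22% higher and 17.8% lower over 4000 nt. An offset per library for 20 classes of length, a setting added once the data were known, left 16037 calls, 7007 higher and 9030 lower, and 13666 of them were made with the same direction without the offset. The part of length in the change of single genes was not tested.

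The hour 22 libraries differed from the others in ways beside the hour. Their total count was 8068941 and 9403923 in the photosensitive and 8951449 in the photorefractory bird, against 3176062 to 7318462 in the other 12. A count of 0 allows up to 3 counts, or 0.319 to 0.372 CPM at hour 22 and 0.41 to 0.945 CPM at the other hours, for counting error only. With all libraries thinned at random to 3176047 counts, 106928 to 108507 assembled genes were found at hour 22 and 67234 to 104741 at the other hours. Counts on genes with a longest transcript under 500 nt took 6.02% to 6.85% at hour 22 and 7.35% to 10.4% at the other hours, and the 10 most abundant genes took 2.61% to 2.88% and 3.01% to 5.72%. None of these 4 ranges overlapped, and each difference had p = 0.0051 by an exact two-sided permutation test that moved the hour 22 label within states, the smallest this design can give (adjusted p = 0.00765 over 6 properties).

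The mean fragment length, taken from the length and the effective length, did not separate the hours, at 241 to 262 nt against 208 to 256 nt (adjusted p = 0.903, same exact permutation test). The share of the 100 most abundant genes was 10.5% to 10.7% at hour 22 and 9.97% to 15% at the other hours (adjusted p = 0.0673). With genes counted as found only above a count of 5, the difference in genes found was 2973 (adjusted p = 0.0735). Without the photorefractory hour 22 bird the adjusted p was 0.107 for the total count and for short genes and 0.214 for genes found and for the 10 most abundant genes. The label could then be moved only among the photosensitive birds, so far fewer arrangements were left and the smallest possible p was larger. For the total count and short genes, not passing in that refit therefore does not show a smaller difference. For genes found and the 10 most abundant genes p lay above the smallest possible value, so other arrangements of the photosensitive birds were at least as extreme.

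With every library thinned to the same total, 5407 genes rose and 6001 fell among 44882 tested, and 10754 of these calls had been made with the same direction at full depth. Against the 6 deepest of the other libraries 7266 rose and 6859 fell. With library size as a term beside hour 22, 2205 rose and 4594 fell, of which 5806 were shared with the fit without it. Thinning made the totals equal, but all 3 hour 22 libraries had been deeper than all others. Other traits of a library that go with its depth therefore cannot be told apart from the hour, and the labels give no batch of extraction or sequencing.

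**Figure D5:**
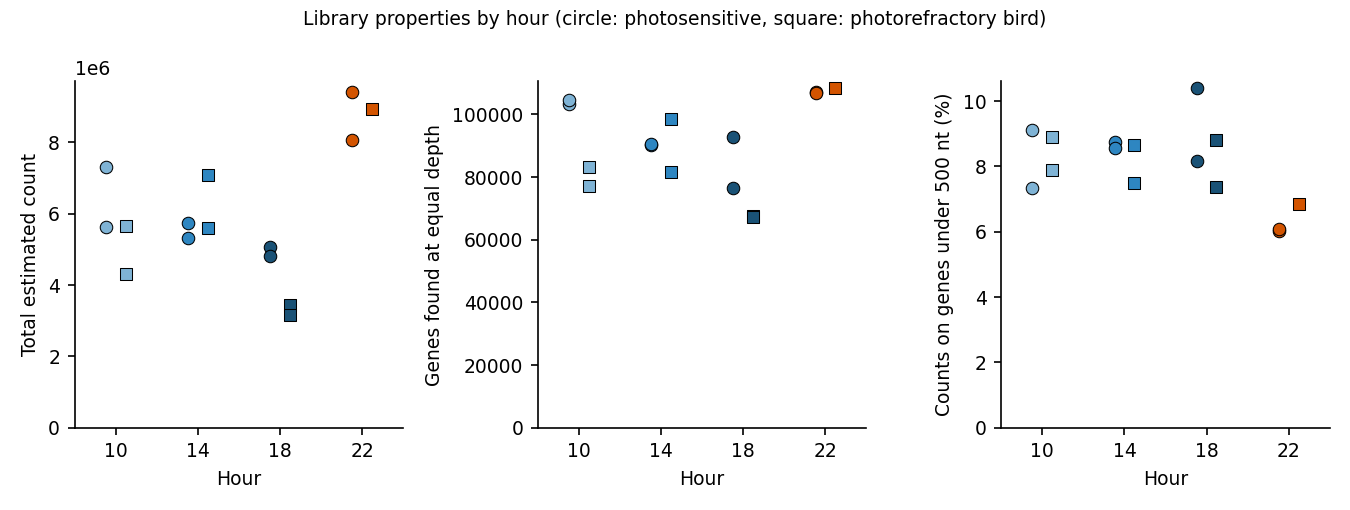
Total count, number of assembled genes found with every library thinned to 3176047 counts, and percent of counts on genes with a longest transcript under 500 nt, for each bird by hour, with circles for photosensitive and squares for photorefractory birds. The 3 hour 22 birds lie above the other 12 in the first panel and second panel and below them in the last.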

How the data were processed

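Total RNA of the hypothalamus was depleted of ribosomal RNA and sequenced as paired reads, 1 library per bird. The authors trimmed the reads with Trimmomatic, assembled them with Trinity, reduced redundancy with CD-HIT and pseudoaligned them by kallisto against 1 index that held all hours of both states. For kallisto, no version is given in the sources used here. Deposited were tables that hold, per transcript and bird, the estimated count (not normalized) and TPM, as kallisto gives them. Redundant assembled sequences can share reads, which the estimated count splits between them.

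Estimated counts were summed per assembled gene (the identifier without its transcript number) and rounded, a step that moved library totals by at most 0.00197%. Groups came from the titles. Genes were tested by the quasi-likelihood method of edgeR 4.0.16 under R 4.3.3, with scaling by TMM, on genes with a sum of at least 5 in 3 or more of 15 libraries, with Benjamini-Hochberg adjustment over all genes tested, at 0.05. The 2 states were also fitted alone. The study's methods compared TPM in pairs of groups; here all libraries entered 1 fit because 1 group holds a single bird. Each bird was kept in a light box of its own. The biological coefficient of variation was 42.9%. The chi-square per degree of freedom between birds of 1 group was 5.49 to 14.7, where counting error alone gives 1, so no library was a copy of another. Library properties were compared by exact permutation. Errors after ± are standard errors.

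Alternatives were RLE factors, DESeq2 1.42.0, TPM tested by limma 3.58.1 with a pseudocount of 1 or 0.1, other filters, thinning, the 10 most abundant genes left out, transcripts in place of genes, a log2 fold change above 1, the bird number as a block, library size as a term, 8 groups, the 6 deepest other libraries, each bird left out, and those described as added once the data were known. Named genes were at most 2 higher and 2 lower per comparison, taken by smallest p from the calls without overlap of the libraries in CPM. A gene named for 1 comparison was passed over in the next. The libraries, lists and tests were chosen with earlier results of these data known. Fragment lengths used transcripts over 2000 nt. Plots come from Python 3.11.15 with matplotlib 3.10.9. Sequences, gene names and the quantitative PCR of the study were not used here.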

Additional observations from a re-analysis of the deposited data

Results flagged for a closer look

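In 36 groups of 6 birds, the photosensitive or the photorefractory birds of hours 10 to 18 taken over 6 library properties and 12 named genes, 4 birds lay far from the rest of their group. Chance gives such a bird in about 1 of 20 groups where values vary freely, a rate that does not hold where most birds have no count. Hours were pooled within each group. The total count of photosensitive hour 10 bird 1 was 7318462, where the next of its group had 5728786. TRINITY_DN77802_c0_g1 was at 2.52 CPM in photorefractory hour 18 bird 2, above the next bird at 1.58 CPM and far below the 111 to 118 CPM of hour 22. TRINITY_DN82661_c2_g3 was at 0.188 CPM in photosensitive hour 14 bird 1 and at 0.318 CPM in photorefractory hour 18 bird 1, where the other birds of each group had no count. Both values lay under the level of 3 counts in their libraries, 0.565 and 0.872 CPM, so they differ from the rest by very few counts.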

How the results depend on the processing

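Of the 16412 genes called at hour 22, between 35.4% (library size as a term) and 99.9% (10 most abundant genes left out) were called with the same direction under the alternatives that tested assembled genes on all 15 libraries or on a chosen set, and 8 calls in all were opposite, all by limma on TPM. The count was 27204 without a filter, 8572 on transcripts, 6799 with library size as a term and 9351 on components, and with 1 bird left out it ranged between 7136 and 18328. The photosensitive count was 7249 after thinning, 408 on transcripts and 6658 on components, and 171 to 15355 with 1 bird left out. The photorefractory count of 301 was 2720 by DESeq2, 4522 and 2818 by limma with a pseudocount of 1 and 0.1, 2260 without a filter, 165 with a minimum of 10, 189 with a mean CPM of at least 1, 76 with the minimum in 6 libraries, 74 after thinning, 38 on transcripts, 191 on components, 157 without genes under 5 in the 12 other libraries, and 3600 without both photorefractory hour 18 birds. With 1 bird left out it was 47 to 1152. The difference between the states gave 7 calls by DESeq2, 90 and 146 by limma, 175 without a filter and 28 on transcripts, and 0 to 0 with 1 bird left out. Against the remaining hours, hours 10, 14 and 18 gave 24, 19 and 1271 by DESeq2 and, at hour 18, 3 without the hour 22 libraries; with 1 bird left out they gave 0 to 1, 0 to 1 and 0 to 34. Hour 22 against hours 10 and 14 singly gave 6844 and 7017 after thinning; with 1 bird left out the ranges were 3513 to 13166, 3540 to 12531 and, against hour 18, 7197 to 17025. Pearson's r between the states was 0.34 without a filter and 0.38 on transcripts, and 0.557 to 0.735 with 1 bird left out. The same-sign share of genes called in the photosensitive birds was 94.9%, beside 74.1% of all genes tested. With 1 bird left out it ranged between 93.8% and 98%. This share used the filter shared by both states, which largely fixed the direction for 2045 of the 6240 genes that rose. The causes were not tested.

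With 1 bird left out, the differences at hour 22 in library properties were 3248385 to 3915876 for the total count, -2.86 to 7.66 nt for the fragment length, 19639 to 23049 for genes found at equal depth, -1.55 to -1.3 and -2.03 to -1.57 percentage points for the 10 and the 100 most abundant genes, and -2.41 to -1.97 for short genes. The 100 most abundant genes passed the threshold without photosensitive hour 10 bird 2 (adjusted p = 0.0163, exact permutation test) and without photorefractory hour 14 bird 2 (0.0429). The difference in genes found was 2973 with a count above 5.

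Birds of different groups share bird numbers, but nothing says that a number marks a shared batch. Over 21 pairs of groups, same-numbered birds deviated together with a correlation of -0.259 to 0.123, over 0.1 in 5 pairs, so the numbers were not taken as a pairing. With the bird number as a block 15826 genes were called at hour 22, 8571 higher and 7255 lower, and 15297 of these were shared. The 12 named genes kept their direction in all 338 refits that tested them, and their side of the threshold in 337.

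Depth limits the low end: a count of 0 allows up to 3 counts in a library. Thinning made the library totals equal, and 11408 of 44882 genes were then called at hour 22. The 3 hour 22 birds had the deepest libraries, and other traits of a library that go with its depth cannot be separated from the hour by any of these settings.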
